A study of Homo sapiens with 8 samples.

Results

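The comparison described here was made in HUH7, a human cell line established from a hepatocellular carcinoma, and it set cells without CSTF2 beside their parental cells. Its members were all genes with a value in the HUH7 column of the authors' deposited table, 10447 genes out of 12058 gene names with a value in either of the columns of the series, HUH7 and PLC/PRF/5. HUH7 was represented by 4 of the 8 libraries of the series. These were an m6A immunoprecipitate and an input library from parental control cells, and a matching immunoprecipitate and input from a CSTF2 knockout made by CRISPR-Cas9. The labels name no treatment or time point, and do not say whether the knockout line was 1 clone or a pool. Each kind of library was made once, so no value has a replicate, no test was made, and differences between genes cannot be set against a spread between samples. The column gives 1 log2 fold change per gene and no value per library, so levels per sample are not shown. Sequencing depth is unknown. The header does not state which genotype is the numerator, so values are called positive or negative as deposited. They are given as gene values only, since the place of the methylated region within each gene was not analysed here.

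N6-methyladenosine (m6A) is the most abundant internal mark of eukaryotic mRNA. It is written in the nucleus by a complex around METTL3 and METTL14, erased by the demethylases FTO and ALKBH5, and bound by reader proteins such as those of the YTH family, which affect splicing, export, translation and decay of the transcript. In MeRIP-seq, RNA fragments are pulled down with an antibody against m6A and sequenced beside an input library, which stands for the level of the transcript itself. CSTF2 encodes the RNA-binding subunit of the cleavage stimulation factor. It recognises U-rich and GU-rich sequence downstream of the poly(A) signal, and its use at alternative sites helps to set where a 3′ UTR ends. m6A is dense near stop codons and in 3′ UTRs, so the 3′ end of a transcript is also where much of the mark lies.

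CSTF2 was not among the genes listed in the HUH7 column, so the column itself holds no check of the knockout. Hepatocyte markers were looked up as well, though fold changes without levels cannot test the tissue label. Of 21 markers, 15 were listed, 9 with a positive and 6 with a negative value, where 39.1% of the whole column was negative. Among the positive ones were the fibrinogen chains FGA (0.56), FGB (0.36) and FGG (0.94) and the regulator HNF4A (0.18) in the authors' deposited table. The 6 negative ones included APOA1, APOA2, APOB, TF and AMBP, and the lowest of the 15 values was -0.50 in the authors' deposited table. ALB and TTR were not among the listed names. A gene's presence in the column is not a level, and in a bulk comparison fewer cells that make a transcript and less of it per cell cannot be told apart. None of the 15 had a repeated value (defined below), and only APOC3 (2.43) and SERPINA1 (1.72) reached 1 in the authors' deposited table.

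Most HUH7 genes lay close to 0. Among genes farther out the balance of signs depended on the repeated values defined below, since unrepeated values past 1 were more often positive and repeated values more often negative. The median was 0.20, and 6353 genes were positive and 4088 (39.1%) negative. A value of 1 or more was held by 2324 genes (22.2% of the column) and a value of -1 or less by 1529 genes (14.6%), so that 3853 genes (36.9%) lay past 1 on either side. Subtracting the column median moved these counts to 1990 and 1748, so the positive share of genes past 1 went from 60.3% to 53.2%. Among the 9132 genes whose value was not repeated, 48.4% lay within 0.5 of 0 and 72.2% within 1. Of these genes 1833 (20.1%) had 1 or more and 705 (7.72%) had -1 or less, a positive share of 72.2% among genes past 1. At an absolute value of 3 or more there were 300 positive and 76 negative unrepeated genes, and at 5 or more 27 and 2. Over all genes, repeated values included, the positive excess shrank and then turned, with 1200 positive and 1040 negative genes at 2 or more, 791 and 900 at 3 or more, and 518 and 826 at 5 or more.

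**Figure D1:**
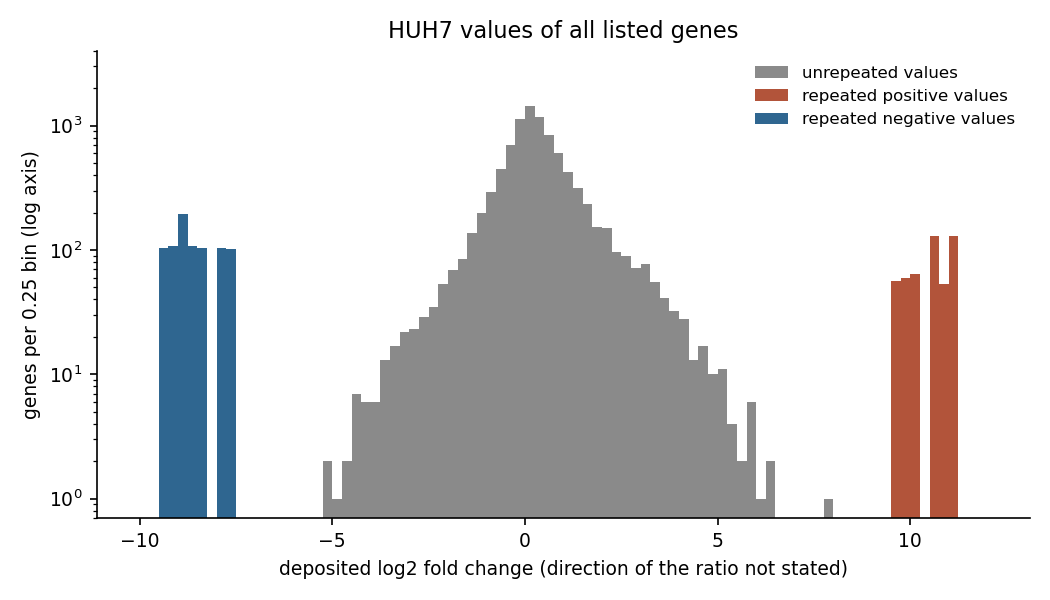
Number of HUH7 genes (log axis) in bins of 0.25 of the deposited log2 fold change, with the 9132 unrepeated values in grey and the repeated positive and negative values in colour. The grey values form 1 peak near 0 with a longer positive tail, and the 491 and 824 repeated values stand apart on either side.

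A repeated value is one above 1 in size that 10 or more genes share to 6 decimals. In total 1315 genes (12.6%) held such values, 491 of them positive (4.7% of the column) and 824 negative (7.89%). Turned into linear fold changes, the 8 positive values were whole multiples, from 3 to 10, of a unit of 241.86. The 8 negative values were in the same way whole multiples, from 3 to 10, of a unit of 61.56. Each positive value was held by 53 to 68 genes and each negative value by 85 to 110 genes. A gap of 1.58 on the log2 scale lay between the lowest repeated positive value and the next unrepeated gene, CNTNAP2. On the negative side the gap was 2.35. CNTNAP2 (7.92), which encodes a neurexin-family adhesion protein, lay on the positive series at a multiple of 1 in the authors' deposited table. How the repeated values were made is not given in the sources used here. For a gene that holds one, the number printed below is the step deposited for it, which may not be a measured size, and such genes are not ranked.

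**Figure D2:**
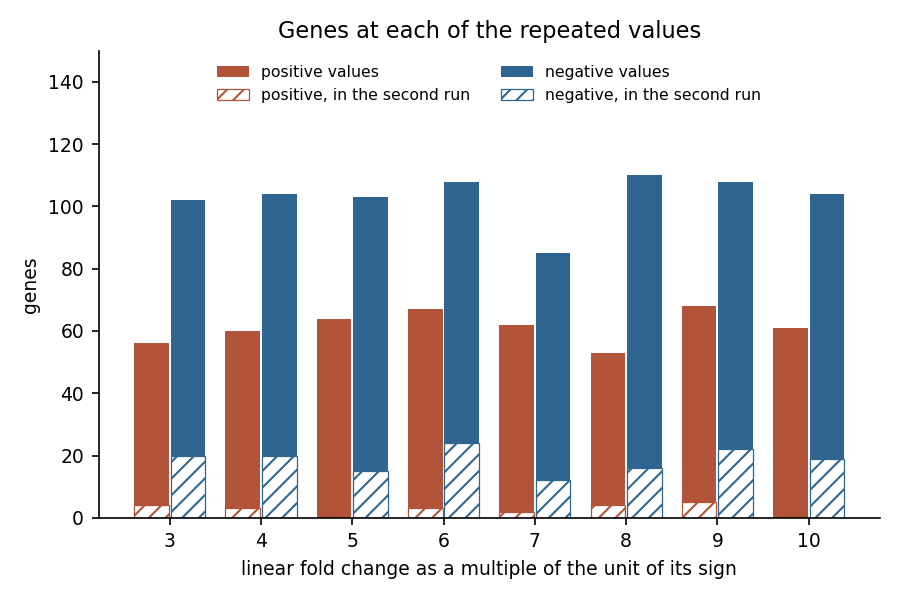
Number of HUH7 genes at each of the 16 repeated values, placed by the linear fold change as a multiple of 241.86 (positive) or 61.56 (negative), with genes of the second run through the chromosomes hatched. All 8 steps from 3 to 10 are filled at similar heights within each sign.

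The column runs through the chromosomes 2 times, and the runs differed in sign. The first run held 9968 genes, and 36.7% of them were negative, with a median of 0.24. The second held 479 genes (4.59% of the column), of which 432, or 90.2%, were negative, with a median of -2.27. In the second run 331 genes (69.1%) had -1 or less and 23 (4.8%) had 1 or more, against 12% and 23.1% in the first. Repeated values made up 35.3% of the second run, 148 of them negative and 21 positive. Without the repeated values, its 310 remaining genes had a median of -1.26. What separates the second run from the first is not stated in the sources used here, and its part in the results was not tested. Genes of the second run are marked as such where they are named below.

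**Figure D3:**
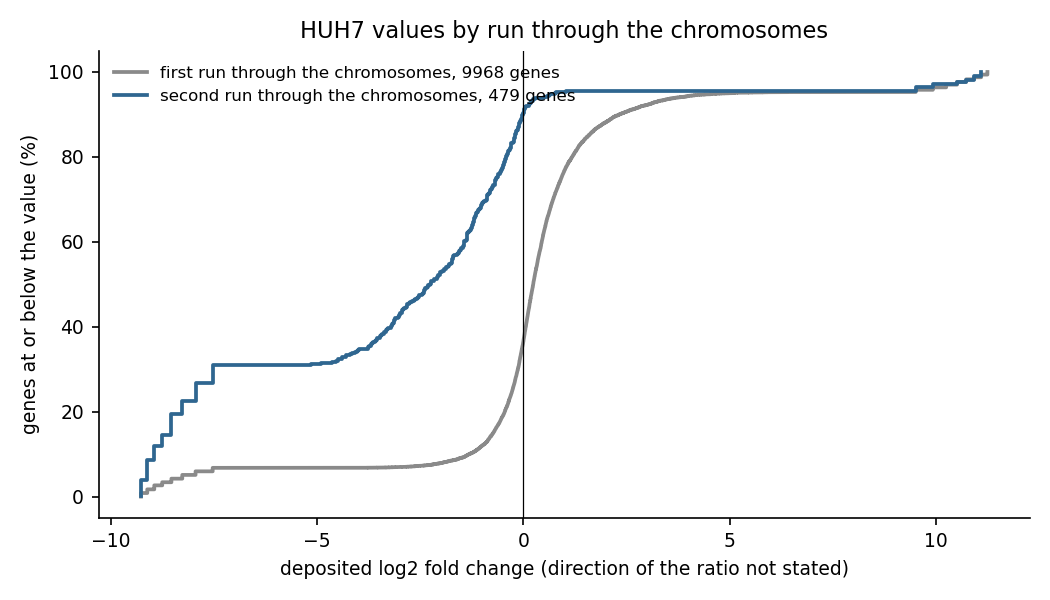
Cumulative share of genes (percent) at or below each deposited log2 fold change, for the 9968 genes of the first run through the chromosomes and the 479 genes of the second. The curve of the second run climbs to 90.2% before 0, that of the first to 36.7%.

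The largest unrepeated positive values belonged to genes of unrelated function. CNTNAP2 (7.92) spans chromosome 7, 146116801 to 148420998, in the RefSeq annotation of GRCh38.p14 and had the highest unrepeated value in the authors' deposited table. That value lies on the series of repeated positive values, at a multiple of 1, so it may not be a measured size. COMMD1, a regulator of copper handling and NF-kB turnover on chromosome 2 (61888391 to 62136058), followed at 6.46, and RNASEH2A, the catalytic subunit of RNase H2 on chromosome 19 (12806584 to 12813640), at 6.38 in the authors' deposited table. IGFBP6, which binds insulin-like growth factors, had 6.16, and the inositol trisphosphate receptor ITPR1, a calcium release channel of the endoplasmic reticulum, had 5.90 in the authors' deposited table. The replication fork gene MMS22L (5.77), the palmitoyltransferase ZDHHC1 (5.66), the tRNA guanosine methyltransferase TRMT11 (5.53) and the cilium transcription factor RFX2 (5.49) came next in the authors' deposited table. The other 6 of the first 15 were FAM78A (5.91), LRRC14 (5.90), FIZ1 (5.79), the histone gene H2BC9 (5.79), SPAG16 (5.48) and the ubiquitin ligase SMURF2 (5.44) in the authors' deposited table. All 15 stood in the first run.

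On the negative side the leading genes stood almost entirely in the second run, which held 14 of the first 15. USP48, a deubiquitinase on chromosome 1 (21678298 to 21783149 in the RefSeq annotation of GRCh38.p14), had -5.18 and ASMTL, on chromosome X (1403139 to 1453756), had -5.14 in the authors' deposited table. IFTAP (-4.90), the membrane-bound transcription factor CREB3L4 (-4.63), TMEM254 (-4.55), RABL2A (-4.48) and PRKACA, the catalytic subunit of protein kinase A (-4.48), followed in the authors' deposited table. HOXA5 (-4.41), the ion channel and kinase TRPM7 (-4.39), the selenoprotein SELENOW (-4.30), MPP1 (-4.30), AIMP1 (-4.30), POPDC1 (-4.21) and the receptor phosphatase PTPRG (-4.16) completed the 14 in the authors' deposited table. The exception was ACTB, cytoplasmic beta-actin, at -4.12 on chromosome 7 (5527148 to 5530601) in the authors' deposited table. In the first run alone ACTB was followed by the tight junction gene CLDN3 (-4.08), the peptidase ERAP1 (-3.79), ZNF805 (-3.66), HYI (-3.57) and COL6A1 (-3.54) in the authors' deposited table, an order that was chosen after the values were seen.

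Genes were then grouped into 115 lists by function or name family, 91 of which had 20 or more listed members. The share of members at an absolute value of 1 or more ran from 6.67% for spliceosome subunits to 70.0% for replication-dependent histones, around the 36.9% of the whole column. Medians ran from -0.17 to 1.83, with 46 lists above and 45 below the column median of 0.20. A list median between 0 and 0.20 becomes negative once the column median is subtracted. Of the 91 lists, 66 had more members at 1 or more than at -1 or less, 16 had fewer and 9 had equal numbers. With the column median subtracted, the numbers of such lists were 54, 29 and 8. With repeated values left out they were 78, 7 and 6, and 9 of the 16 lists then had more members on the positive side. The shares below are a description of 1 deposited comparison, and members of a list are not replicates.

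**Figure D4:**
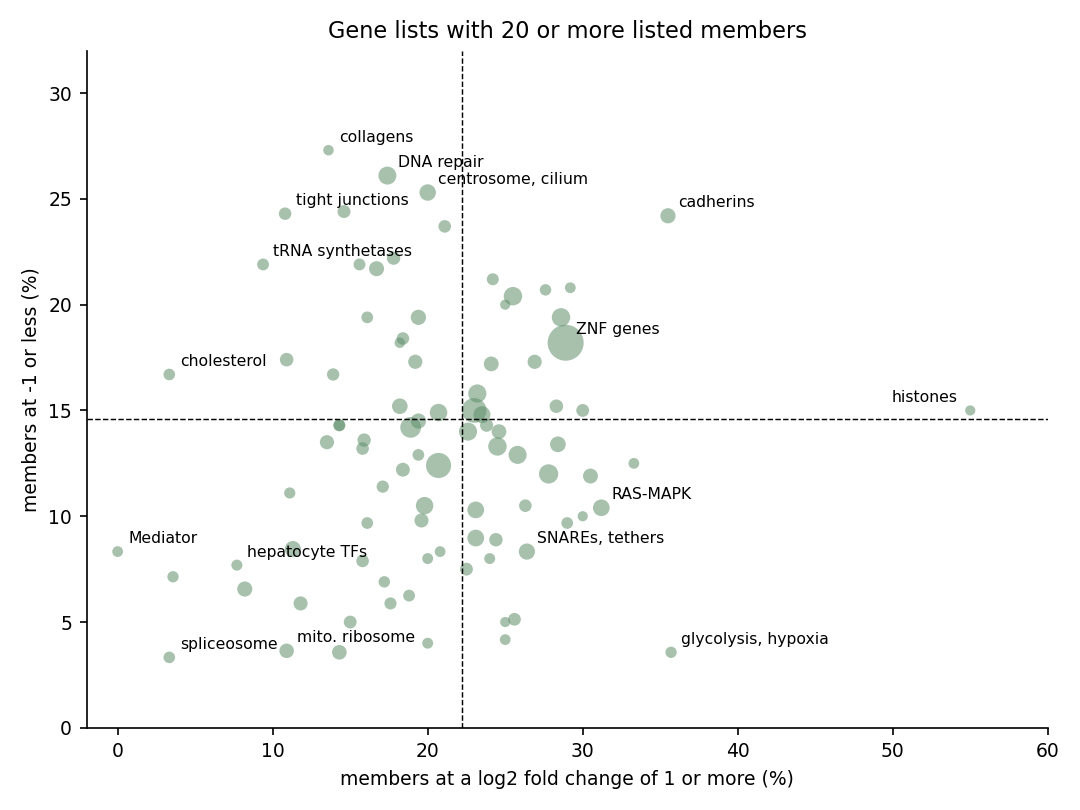
Share of members (percent) at a log2 fold change of 1 or more against the share at -1 or less, 1 point per list with 20 or more listed members and the area growing with the number of members. Dashed lines mark the 22.2% and 14.6% of the whole column, with the spliceosome and Mediator lists low on both axes and cadherins high on both. Histones are high at 1 or more (55%) and near the line at -1 or less (15%).

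The list of m6A writers, which takes in other RNA methyltransferases beside the METTL3 and METTL14 complex, had a share past 1 near that of the column. Of its 12 listed genes 8 were positive and 4 negative, where 39.1% of the column was negative. In size, 4 of the 12 (33.3%, against 36.9% of the column) lay past 1, 3 of them positive. The adaptor genes RBM15 (2.08) and VIRMA (1.16) and TRMT112 (1.30), the partner of several methyltransferases, had 1 or more in the authors' deposited table. RBM15B (0.83), METTL3 (0.42), METTL14 (0.27), METTL16 (0.11), WTAP (-0.15), METTL4 (-0.47) and CBLL1 (-0.62) lay within 1 of 0, as did the cap methyltransferase PCIF1 (0.97), in the authors' deposited table. The complex subunit ZC3H13 held a repeated negative value (-8.27), the only one of the list, in the authors' deposited table. The demethylases ALKBH5 (0.67) and FTO (0.46) were close to each other in the authors' deposited table.

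The list of m6A readers, which takes in other RNA-binding proteins beside the YTH family, was split in sign. It had 10 positive and 7 negative members, where 39.1% of the column was negative. Among the YTH proteins, YTHDC1 (0.54), YTHDF2 (0.22) and YTHDF3 (-0.59) were small, YTHDC2 (-1.92) was negative and stood in the second run, and YTHDF1 held a repeated value (10.50) in the authors' deposited table. YTHDF1, YTHDF2 and YTHDF3 are close paralogues. FMR1, the fragile X translational regulator, had 4.13, beside 0.23 for its relative FXR2 in the authors' deposited table. IGF2BP2 (0.05) and IGF2BP3 (-1.36, second run) differed in the authors' deposited table. HNRNPC (0.77), HNRNPA2B1 (0.26), G3BP1 (0.72), G3BP2 (0.37), ELAVL1 (-0.28), RBMX (-0.32), PRRC2A (-0.15) and EIF3A (-0.12) lay within 1 of 0 in the authors' deposited table.

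Cleavage and polyadenylation genes, the process that CSTF2 belongs to, had 18 positive and 7 negative members among 25 and a median of 0.39. Of the 25 genes, 5 (20%, against 22.2% of the column) had 1 or more and 1 (4%, against 14.6%) had -1 or less. With the column median subtracted these counts were 4 and 1. Of the cleavage stimulation factor, the CSTF2 paralogue CSTF2T (0.39) and CSTF1 (0.25) were listed in the authors' deposited table. Of the specificity factor that reads the poly(A) signal, CPSF2 (0.59) and WDR33 (-0.21) were small and CPSF4 (-2.08) was the 1 member of the list at -1 or less in the authors' deposited table. CPSF6 (-0.35) and CPSF7 (-0.21), of cleavage factor I, the scaffold SYMPK (0.49), the termination factor PCF11 (0.92), RBBP6 (0.50), SSU72 (0.37), CLP1 (-0.10), WDR82 (0.91), PPP1CA (-0.12) and the canonical poly(A) polymerase PAPOLA (0.91) lay within 1 of 0 in the authors' deposited table. The noncanonical poly(A) polymerases stood higher, with TENT2 at 1.67, TENT4A at 1.26 and TENT4B at 1.01 in the authors' deposited table. The phosphatases CTDSP1 (1.40) and CTDSP2 (0.97), of the family that acts on the tail of RNA polymerase II, were also positive in the authors' deposited table. PABPN1, the nuclear poly(A)-binding protein, held a repeated value (9.92) in the authors' deposited table. Histone pre-mRNA processing was represented by SLBP (0.09), LSM10 (0.15), LSM11 (-0.22) and ZNF473 (0.03), all near 0 in the authors' deposited table.

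The splicing machinery had the smallest share past 1 of the 91 lists. Of 30 spliceosome subunits none held a repeated value, 1 had 1 or more and 1 had -1 or less. These were SF3A2 (1.13) and SF3B1 (-1.56, second run), both of the U2 particle, in the authors' deposited table. The SR and hnRNP proteins, which steer splice site choice, were wider, with 6 of 34 at 1 or more and 2 at -1 or less. SRSF5 had 1.73, HNRNPF -2.37 and HNRNPDL -2.32, and HNRNPH1, a close paralogue of HNRNPF, held a repeated value (9.92) in the authors' deposited table. Of 15 exon junction and nonsense-mediated decay genes only UPF2 (3.05) passed 1 in size, with UPF1 at 0.02 and UPF3A at -0.18 in the authors' deposited table. Likewise only ZCCHC8 (4.16), a subunit of the exosome targeting complex, did so among 10 exosome genes in the authors' deposited table. Export genes were near 0 apart from MCM3AP (1.07), with ENY2 (-9.11) and PCID2 (-8.75), which share a complex at the nuclear pore, at repeated negative values in the authors' deposited table.

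Genes of mRNA decay and small RNA pathways had shares past 1 near the column's 36.9%. These were 35.5% for CCR4-NOT and decapping genes and 40% for the microRNA machinery. CCR4-NOT and decapping genes had 5 of 31 at 1 or more and 6 at -1 or less (5 and 4 without repeated values). The deadenylase cofactor PAN3 had 4.35 and the decapping enzyme DCP2 2.55, while the scaffold CNOT1 had -3.12 in the second run and CNOT2 (-7.94) and CNOT7 (-8.94) held repeated values in the authors' deposited table. Among 15 genes of the microRNA machinery AGO2 (2.42) and DICER1 (1.0) led the positive side, and TNRC6B (-2.59), TNRC6A (-8.94, repeated), LIN28B (-1.36, second run) and AGO4 (-1.0) the negative side in the authors' deposited table. DROSHA (-0.81, second run), DGCR8 (0.74), TARBP2 (0.42), PRKRA (0.63), AGO1 (0.79), AGO3 (-0.06), TUT4 (-0.57), TUT7 (0.04) and TNRC6C (-0.05) stayed within 1 of 0 in the authors' deposited table. DDX and DHX helicases were narrower, with 20% of 40 members past 1 and no repeated value. They had 6 members at 1 or more and 2 at -1 or less, led by DDX5 (3.11) and DDX52 (2.51) in the authors' deposited table.

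Ribosomal and translation factor genes were narrow beside the column, of which 36.9% lay past 1. Their shares past 1 were 14.5% (mitochondrial ribosome), 22.2% (cytosolic ribosome), 17.6% (ribosome biogenesis) and 23.7% (translation factors). Synthetases (31.2%) and tRNA modification enzymes (30%) were nearer to the column. Mitochondrial ribosomal proteins had 6 of 55 at 1 or more and 2 at -1 or less, with MRPL20 (3.76) and MRPL19 (1.69) highest and MRPS23 (-8.75) and MRPS21 (-8.53, second run) at repeated values in the authors' deposited table. Cytosolic ribosomal proteins had 3 of 27 on each side, RPL27A (3.31) and RPS19 (-3.04, second run) leading in the authors' deposited table. Ribosome biogenesis factors had 6 of 51 and 3 of 51, with RRP8, an rRNA methyltransferase, at 3.83 and NOL12 at 3.56 in the authors' deposited table. Translation factors had 6 of 38 and 3 of 38. EIF4G2, which drives cap-independent initiation, had 3.80, and EIF2S3B, a near-identical copy of EIF2S3 whose reads may be shared with it, 3.91 in the authors' deposited table. The aminoacyl-tRNA synthetases were tilted the other way, with 3 of 32 at 1 or more (9.38%, against 22.2% of the column). A value of -1 or less was held by 7 (21.9%, against 14.6%), and in the first run alone the counts were 3 and 5 of 29. AIMP1 (-4.30, second run) and AIMP2 (-8.94, repeated), scaffolds of the cytosolic multisynthetase complex, and the synthetases VARS2 (-3.31), LARS1 (-2.64) and WARS1 (-8.75, repeated) were on the negative side, against SARS2 (3.10) and CARS1 (1.97) in the authors' deposited table. Enzymes that modify tRNA had 9 of 40 at 1 or more (22.5%, near the column's 22.2%) and 3 at -1 or less (7.5%, against 14.6%). Their highest values were TRMT11 (5.53), TYW5 (2.73), TRMT2B (2.07) and WDR4 (1.89) in the authors' deposited table.

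Among the complexes of transcription, Mediator was narrow and the others were mixed. None of 24 Mediator genes reached 1, and the highest, the kinase CDK19, had 0.99, with MED13 (-1.19) and MED15 (-8.53, repeated, second run) at -1 or less in the authors' deposited table. Of 11 Integrator genes 3 had 1 or more and 1 had -1 or less, and their median was 0.86. INTS5 (1.73), INTS12 (1.04), INTS9 (1.03), INTS4 (0.98), INTS6 (0.90) and INTS15 (0.86) were in the upper part, and the endonuclease INTS11 (0.17), INTS14 (0.34), INTS3 (-0.14), INTS10 (-0.25) and INTS7 (-1.03) in the lower part in the authors' deposited table. RNA polymerase subunits had 5 of 25 and 2 of 25, with POLR1C (3.04), POLR3C (2.15) and POLR1B (2.02) positive and POLR2C (-2.18, second run) and POLR3F (-1.64) negative in the authors' deposited table. General transcription factors had 6 of 38 and 5 of 38. The TATA-binding protein TBP had -2.40 in the second run and its relative TBPL1 3.25 in the authors' deposited table. Elongation factors had 5 of 31 and 3 of 31, with LARP7 (2.36) highest and the PAF1 complex genes CDC73 (1.28), RTF1 (1.20) and CTR9 (-2.17) on both sides in the authors' deposited table.

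Replication-dependent histone genes, which are expressed in S phase and lack introns, had the widest interquartile range of the 91 lists, -0.35 to 3.48. Of 20 listed genes 11 had 1 or more and 3 had -1 or less, all 3 at repeated values, and all 20 stood in the first run. The H2A genes ran from H2AC17 (0.01) and H2AC25 (0.21) through H2AC6 (2.45), H2AC16 (3.22) and H2AC13 (4.28) to H2AC11 (9.50, repeated) in the authors' deposited table. The H2B genes spread on both sides, with H2BC9 (5.79), H2BC21 (2.77), H2BC6 (1.32), H2BC5 (-0.28), H2BC4 (-0.56), H2BC11 (-8.94, repeated) and H2BC8 (-9.27, repeated) in the authors' deposited table. For H3 the values were 9.92 (H3C1, repeated), 5.09 (H3C10), 2.34 (H3C4) and -0.53 (H3C6), for H4 -0.24 (H4C8) and -8.27 (H4C14, repeated), and for the linker gene H1-3 3.03 in the authors' deposited table. Copies of a histone type are nearly identical in sequence, so the split of reads between them is uncertain. Their mRNAs mostly end in a stem-loop in place of a poly(A) tail, and the labels' protocol selects mRNA with oligo(dT) beads. The part of that selection in these values was not tested. The variant histone genes, which are expressed outside S phase as polyadenylated mRNAs in most cases, were narrower. CENPA (1.24) alone of 9 reached 1, and H3-3B (0.86), H2AJ (0.45), H2AX (0.32), H2AZ2 (0.02), MACROH2A1 (-0.28), MACROH2A2 (-0.48) and H1-10 (-0.75) did not in the authors' deposited table.

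Chromatin lists lay on both sides of the column's shares of 22.2% and 14.6%. Histone methyltransferases had 13 of 46 at 1 or more (28.3%) and 7 at -1 or less (15.2%), among them SETDB2 (4.40), PRDM2 (3.60), PRDM1 (2.31) and PRMT9 (-1.99), with SETD2 (-8.75) and PRMT7 (10.73) at repeated values in the authors' deposited table. SETD2 methylates histone H3 along transcribed gene bodies. Of 20 histone demethylases 5 had 1 or more, KDM4C (2.14), PHF2 (1.69), KDM4B (1.08) and, at repeated values, KDM1B (9.92) and KDM4D (10.24), and only KDM7A (-7.94, repeated) had -1 or less in the authors' deposited table. The acetyltransferase paralogues KAT2A (3.47) and KAT2B (2.24) were both positive, and the deacetylases HDAC11 (2.02), HDAC10 (-2.06) and SIRT1 (-9.27, repeated) were of both signs in the authors' deposited table. Chromatin remodellers had 5 of 46 (10.9%) and 8 of 46 (17.4%), and all 6 repeated values among them were negative, including CHD1 (-7.94) and RUVBL1 (-9.27) in the authors' deposited table. Without the repeated values the counts were 5 and 2, led by BPTF (4.32) and INO80 (4.14) in the authors' deposited table. Polycomb genes had 6 of 31 and 4 of 31, with CBX6 (2.58), PCGF1 (2.24) and EZH1 (1.83) positive and SUZ12 (-1.03) and RYBP (-1.03) negative in the authors' deposited table. In the DNA methylation list TET3 (2.59), TET2 (1.33) and TET1 (0.59), the 5-methylcytosine oxidases, were all positive, while UHRF2 (2.58) and its paralogue UHRF1 (-9.11, repeated) were opposite in the authors' deposited table. DNMT1 (0.78), DNMT3A (0.56) and DNMT3B (-0.30) lay within 1 of 0 in the authors' deposited table.

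Zinc finger genes were the largest family. ZNF genes had 119 of 412 at 1 or more (28.9%) and 75 at -1 or less (18.2%), and 18% held repeated values, 29 positive and 45 negative. ZNF397 (5.17), ZNF264 (5.06), ZNF107 (4.97), ZNF316 (4.66), ZNF546 (4.60) and ZNF92 (4.53) led the unrepeated members in the authors' deposited table. Many ZNF genes lie in clusters of related copies, whose reads may be shared. The ZBTB and related zinc finger genes had 18 of 78 and 8 of 78, led by ZBTB34 (5.34) and ZBTB22 (4.05) in the authors' deposited table. KLF and SP factors had 5 of 19 at 1 or more, SP3 (2.24), KLF9 (2.16), KLF2 (1.60), KLF6 (1.38) and KLF3 (1.06), and KLF4 (-8.27, repeated) alone at -1 or less in the authors' deposited table. The 6 SOX genes ran only from -0.16 (SOX6) to 0.40 (SOX9) in the authors' deposited table. Homeobox genes had 12 of 62 on each side, with MEIS1 (3.00), HOXC6 (2.54) and DLX6 (2.37) opposite HOXA5 (-4.41, second run) in the authors' deposited table. Nuclear receptors had 9 of 31 at 1 or more and 3 at -1 or less. The retinoic acid receptor RARG had 4.13 and its paralogue RARB a repeated value of 10.24, the clock receptor NR1D2 had 2.89, the vitamin D receptor VDR a repeated 11.24, and PPARD -1.94 in the authors' deposited table. Of the MYC and E2F network, MYCN (3.04), E2F2 (2.23), E2F4 (2.15), E2F8 (1.88) and MNT (1.65) were above 1, MYC (-0.17) and MAX (0.54) were near 0, and MXI1 (-1.28, second run) was below -1 in the authors' deposited table. AP-1, ATF and C/EBP factors had 7 of 44 at 1 or more (15.9%, against 22.2% of the column) and 6 at -1 or less (13.6%, against 14.6%). CREB3L4 (-4.63, second run) and FOSL2 (-3.39) were the lowest unrepeated values in the authors' deposited table. NFE2L1 (1.74), MAFK (1.63) and JUNB (1.41) were the highest, and FOSB (9.50) and MAFA (-8.53) held repeated values in the authors' deposited table. JUN (-0.10), CEBPD (0.02) and ATF4 (0.24), chosen after their values were seen, lay near 0 in the authors' deposited table.

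The transcription factors that define hepatocytes were a narrow list, with no repeated value among 26 and 2 members past 1 on each side. These were NR0B2 (1.52) and ESRRA (1.21), GATA6 (-1.71) and the xenobiotic receptor NR1I2 (-1.18) in the authors' deposited table. FOXA1 (0.81), FOXA3 (0.72), ONECUT1 (0.95), RXRA (0.45), the bile acid receptor NR1H4 (0.43), NR1H3 (0.42), HHEX (0.31), PPARA (0.28), NR5A2 (0.28), PROX1 (0.23) and ONECUT2 (0.19) were positive and below 1 in the authors' deposited table. CEBPA (-0.03), FOXA2 (-0.12), CEBPB (-0.26), CREB3L3 (-0.41), GATA4 (-0.46), ZHX2 (-0.67), TBX3 (0.64) and NR1I3 (0.07) also lay within 1 of 0 in the authors' deposited table.

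Genes of the liver's secreted and metabolic products followed. Apolipoprotein and lipoprotein genes had 6 of 24 at 1 or more and 1 at -1 or less. APOA4 (3.40), APOC3 (2.43) and APOA5 (0.98) were higher than their neighbour in the same cluster, APOA1 (-0.25), in the authors' deposited table. APOL1 (2.34) and ABCA1 (1.63), the cholesterol exporter, were positive, APOL3 held a repeated value (11.09, second run) and the lipase LIPG (-1.82) was negative in the authors' deposited table. APOB (-0.50), APOA2 (-0.21), SCARB1 (-0.07), LIPC (0.00), APOE (0.12), APOC1 (0.28, second run), LCAT (0.47), APOM (0.51) and MTTP (0.80) lay within 1 of 0 in the authors' deposited table. So did ANGPTL4 (0.15), APOLD1 (0.18), APOL6 (0.22), APOL2 (-0.22) and LRP1 (0.34) in the authors' deposited table. Plasma protein, coagulation and complement genes had 12 of 62 and 9 of 62, led by complement C6 (3.15), ITIH5 (3.03) and SAA1 (2.39) in the authors' deposited table. The second run held 10 of the 62 (16.1%, against 4.59% of the column), among them TF (-0.18), A2M (-0.31), AMBP (-0.37), HPX (-0.48), KLKB1 (-1.11) and MBL2 (-1.31), chosen after their values were seen, in the authors' deposited table.

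Drug and sterol metabolism held several repeated values. Of 16 cytochrome P450 and partner genes, CYP2D6 (3.47), CYP2S1 (1.93) and CYP4V2 (1.60) had 1 or more and the electron donor POR (-1.96) was negative in the authors' deposited table. CYP3A5 (-7.94), CYP27B1 (-7.53), CYP2U1 (-8.53) and CYP39A1 (-9.27) held repeated values, all negative, in the authors' deposited table. Glucuronosyl-, sulfo- and glutathione transferases and related enzymes had 8 of 38 and 9 of 38 (5 and 3 without repeated values), with UGT2B7 (3.89), SULT1A2 (3.11) and AKR1C4 (2.80) opposite NAT1 (-2.56) in the authors' deposited table. UGT1A1 (10.73, repeated) and UGT1A6 (-2.65, second run) had opposite signs although UGT1A genes share all but their first exon, so the assignment of reads to either is uncertain, in the authors' deposited table. The sterol transporter partners ABCG5 (10.24, repeated) and ABCG8 (0.80), which work as a dimer, were also unlike, and the conjugate exporters ABCC3 (4.64) and ABCC4 (-1.54, second run) had opposite signs in the authors' deposited table. ABCG8 was chosen after its value was seen. In cholesterol synthesis only GGPS1 (10.50, repeated) of 30 genes reached 1 (3.33%, against 22.2% of the column). A value of -1 or less was held by 5 genes (16.7%, against 14.6%). Without repeated values the counts were 0 and 2. Among the 5 genes IDI1 (-8.94) and the absorption protein NPC1L1 (-9.27) held repeated values and MBTPS2 (-1.93) and SOAT2 (-1.02) did not, in the authors' deposited table.

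Genes of glycolysis and the hypoxia response had 10 of 28 at 1 or more (35.7%, against 22.2% of the column) and 1 at -1 or less (3.57%, against 14.6%). Without repeated values 5 of 22 (22.7%) had 1 or more, against 20.1% of all unrepeated genes, and the median went from 0.31 to 0.16. The kinase PDK3 (2.76), the transporter SLC2A1 (2.66), PGK1 (1.37), PFKL (1.20) and ALDOC (1.03) held the unrepeated ones in the authors' deposited table. The other 5 were repeated values, among them GPI (10.24) and HK1 (10.50), and BNIP3 (-7.53, repeated) was the 1 negative in the authors' deposited table. In gluconeogenesis and glycogen metabolism GYS1, muscle-type glycogen synthase, had 3.28, and the isozymes PCK2 (9.50, repeated) and PCK1 (-8.27, repeated, second run) had opposite signs in the authors' deposited table. Around pyruvate dehydrogenase, the activating phosphatase PDP1 had 3.03 and its paralogue PDP2 a repeated -8.27, with PDHX (-9.11) and DLD (-7.94) also at repeated negative values, both in the second run, in the authors' deposited table. Fatty acid genes had no repeated value among 32, with 6 at 1 or more and 2 at -1 or less. HADH (4.36), an enzyme of beta-oxidation, and ACSL4 (2.80) were highest, and CPT1A (-2.40), the entry step of oxidation, and ACSL5 (-3.56), both in the second run, lowest in the authors' deposited table.

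Most respiratory chain genes were near 0, those of the nuclear and of the mitochondrial genome. The 12 listed genes of the mitochondrial genome ran from MT-CO2 (-0.22, second run) to MT-ND3 (0.18), the narrowest range of any list with 10 or more members, in the authors' deposited table. MT-CYB had 0.11, MT-ATP8 0.10, MT-ATP6 0.04, MT-ND6 -0.01, MT-ND2 -0.02, MT-ND4L -0.03, MT-ND4 -0.04, MT-ND1 -0.07, MT-CO1 -0.12 in the second run and MT-ND5 -0.16 in the authors' deposited table. Of 61 nuclear genes of oxidative phosphorylation 5 had 1 or more and 4 had -1 or less, led by ATP5MC2 (3.28) and NDUFA13 (-2.26) in the authors' deposited table. Mitochondrial import and dynamics had 7 of 38 on each side, with the fusion protein MFN2 (2.40) and the chaperonin HSPD1 (-1.59, second run) in the authors' deposited table. Nucleotide and one-carbon genes had 5 of 36 and 6 of 36 (5 and 1 without repeated values). RRM2 (4.11), a ribonucleotide reductase subunit, CTPS1 (2.32) and UMPS (2.09) were positive in the authors' deposited table, and the 5 repeated values of the list were all negative.

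Protein turnover was narrow at the proteasome, with 10.7% of its genes past 1, against 36.9% of the column. The deubiquitinase, cullin-type ligase and other ligase lists were wider, but at 41.4%, 37.8% and 36.6% they lay near the column. PSMA4 (2.82) was the only 1 of 28 proteasome genes at 1 or more, and PSMA2 (-9.11, second run) and UCHL5 (-8.94), both repeated, the only ones at -1 or less in the authors' deposited table. Deubiquitinases had 14 of 58 and 10 of 58, from USP40 (4.29) and USP49 (3.30) to USP12 (-3.34) and USP48 (-5.18), the last 2 of these in the second run, in the authors' deposited table. Cullin-type ligase genes had 24 of 98 and 13 of 98. FBXL18 (4.41), FBXW4 (4.18) and the scaffold CUL4B (3.42) were highest and KLHL12 (-3.39, second run) lowest in the authors' deposited table. Among the other ligases, with 21 of 93 and 13 of 93, SMURF2 (5.44), HERC6 (4.01) and UBR2 (3.42) were highest, and the ligase MDM2 (-9.27) held a repeated negative value in the authors' deposited table. Chaperone genes had 12 of 66 and 10 of 66, with HSPA6 (4.55) and HSP90B1 (-2.23) in the authors' deposited table. In the unfolded protein response the sensors differed, EIF2AK3 having 2.07 and ATF6B -2.34 in the second run in the authors' deposited table.

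Trafficking lists, like the column (22.2% and 14.6%), had more members at 1 or more than at -1 or less. The exception was RAB regulators, with 7 of 52 on each side. SNARE and tethering genes had 19 of 72 at 1 or more (26.4%) and 6 at -1 or less (8.33%). BET1 (4.66), of transport between endoplasmic reticulum and Golgi, VPS33B (3.12) and COG8 (2.33) led them in the authors' deposited table. Vesicle coat and ARF genes had 17 of 86 and 9 of 86, and the COPII coat genes SEC23B (5.15) and SEC24B (4.38) had the largest values in the authors' deposited table. Sorting nexin and ESCRT genes had 10 of 38 and 4 of 38, led by SNX12 (3.95) and STAM (3.15) in the authors' deposited table. RAB GTPases had 10 of 42 and 6 of 42, from RAB33B (4.14) to RAB28 (-2.89) in the authors' deposited table. Nucleoporin and importin genes had 12 of 40 and 6 of 40, among them RANGAP1 (3.62) and the exportin XPO6 (3.39) in the authors' deposited table. Autophagy and lysosome genes stayed closer, with 8 of 71 and 6 of 71.

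Actin genes and regulators had 8 of 56 at 1 or more and only 2 at -1 or less, ACTB (-4.12) and WASL (-1.21, second run), in the authors' deposited table. LIMK1 (2.06), FLNC (1.94) and ACTR3B (1.93) were their highest unrepeated values, with ACTA2 at a repeated 9.92 in the authors' deposited table. Tubulin and microtubule genes had 6 of 41 and 10 of 41, with 6 of the 10 at repeated values, and the counts were 5 and 4 without repeated values. TUBA8 (2.09) was highest and TUBA1A (-2.31, second run) lowest among the unrepeated ones in the authors' deposited table. Kinesins had 8 of 33 and 7 of 33. Repeated values were held by 9 of them (27.3%, against 12.6% of the column), 6 positive and 3 negative, such as KIF24 (11.24) and KIF18A (-9.27) in the authors' deposited table. Apart from these the largest kinesin value was -2.24, for the spindle motor KIF11 in the second run, in the authors' deposited table. Dynein genes had 7 of 24 and 5 of 24, with the cargo adaptor BICD2 (3.38) and the heavy chain DYNC1H1 (2.26) opposite PAFAH1B1 (-2.41) in the authors' deposited table. Centrosome and cilium genes had 15 of 75 and 19 of 75 (11 and 9 without repeated values), with BBS12 (3.34) among the highest in the authors' deposited table.

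The signalling lists, like the column (22.2% and 14.6%), had more members at 1 or more than at -1 or less. Among those given here the shares at 1 or more ran from 19.2% (TGF-beta and BMP) to 33.3% (receptor tyrosine kinases). The shares at -1 or less ran from 8.89% (PI3K and mTOR) to 17.3% (TGF-beta and BMP). RAS-MAPK genes had 24 of 77 at 1 or more (31.2%) and 8 at -1 or less (10.4%), and a median of 0.43. The RAF inhibitors SPRED2 (2.82) and SPRED1 (2.30), the adaptors SHC1 (2.20) and GAB2 (2.10) and the kinase MAPK14 (2.12) were above 1 and the exchange factor SOS2 (-2.56) below -1 in the authors' deposited table. BRAF (11.24) and MAP3K1 (11.09) held repeated positive values in the authors' deposited table. Receptor tyrosine kinases had 8 of 24 and 3 of 24. The collagen receptor DDR2 had 3.24 and its paralogue DDR1 a repeated 10.24, and FGFR1 (1.54) and FGFR2 (-2.06) were of opposite sign in the authors' deposited table. PI3K and mTOR genes had 11 of 45 and 4 of 45. AMP kinase subunits PRKAG2 (4.14) and PRKAA2 (3.30) and the mTORC1 inhibitor DEPDC5 (3.99) were among the highest in the authors' deposited table. The Wnt list had 18 of 59 and 7 of 59, with the receptors RYK (2.42), FZD9 (1.77) and FZD5 (1.64) positive and APC (-8.53) and FZD1 (-8.94) at repeated negative values in the authors' deposited table. In the TGF-beta and BMP list, with 10 of 52 and 9 of 52, the receptors ACVR1 (1.88) and TGFBR3 (1.88) were positive, BMPR2 (10.24) and TGFBR1 (-9.27) held repeated values of opposite sign, and SMAD1 had -2.03 in the authors' deposited table. Phosphatases had 30 of 108 and 13 of 108, and innate immunity genes 24 of 93 and 12 of 93. The pattern receptor TLR2 (3.24), the receptor TNFRSF25 (3.47) and NLRC5 (-2.83, second run) were among the largest of the latter in the authors' deposited table.

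Surface receptors and channels had above the column's shares on both sides, solute carriers below them. G protein-coupled receptor and related genes had 28 of 98 at 1 or more and 19 at -1 or less, with P2RY6 (4.75), NPFFR2 (4.72) and GPR176 (4.50) highest in the authors' deposited table. Ion channel and pump genes had 25 of 98 and 20 of 98. ITPR1 (5.90), KCNE2 (4.50), LRRC8B (4.39), a volume-regulated anion channel subunit, and CACNA1S (3.71) stood opposite TRPM7 (-4.39, second run) in the authors' deposited table. Solute carriers had 40 of 193 and 24 of 193, from SLC49A3 (4.99) and the zinc importer SLC39A10 (4.06) to SLC27A2 (-3.12) and SLC35A3 (-3.17) in the authors' deposited table.

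Cadherins and protocadherins had the widest interquartile range after histones among lists of 20 or more, -0.85 to 1.45. Of 62 genes 22 had 1 or more (35.5%) and 15 had -1 or less (24.2%), and 19 held repeated values, 7 positive and 12 negative. PCDH7 (2.98), PCDHA6 (2.86), CDH4 (2.63), PCDHGA7 (2.63) and CDHR5 (2.47) were highest among the unrepeated ones and PCDHB12 (-1.95) lowest in the authors' deposited table. Genes of the PCDHA and PCDHG clusters share their last exons, so opposite values such as PCDHA2 (11.09, repeated) and PCDHA5 (-8.94, repeated) cannot be assigned to either gene with certainty in the authors' deposited table. Tight junction and tetraspanin genes had 4 of 37 and 9 of 37 (2 and 4 without repeated values), with CLDN3 (-4.08) and CLDN4 (-1.91) negative, CLDN18 (1.35) and CLDN6 (1.25) positive, and the scaffold TJP1 at a repeated -9.27 in the authors' deposited table.

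Collagens had the lowest median of the 91 lists, -0.17, with 3 of 22 at 1 or more and 6 at -1 or less (3 and 4 of 20 in the first run alone). COL1A1 (3.97) and COL1A2 (4.01), the chains of type I collagen, nearly coincided in the authors' deposited table. COL6A1 (-3.54) and COL6A2 (-8.94, repeated, second run) were both negative, and COL4A1 (0.72) and COL4A2 (0.86) both small in the authors' deposited table. These 3 pairs, each of chains that assemble together, were chosen after their values were seen. COL12A1 (-3.48, second run) and COL3A1 (-1.26) were negative as well in the authors' deposited table. Laminins, proteoglycans and matrix glycoproteins had 19 of 67 and 9 of 67, led by the proteoglycan VCAN (3.48) in the authors' deposited table. Among 12 integrin genes ITGAV (1.93) and the activator FERMT2 (1.34) were positive, ITGB4 (-3.02, second run) and ITGB5 (-1.26) negative, and ITGB1 (0.20), ITGA5 (0.04), ITGA6 (0.13) and ITGA3 (-0.10) near 0 in the authors' deposited table.

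DNA damage and repair was the largest list with more members at -1 or less than at 1 or more, 24 of 92 (26.1%, against 14.6% of the column) and 16 of 92 (17.4%, against 22.2%). Repeated values were held by 14.1% of the list, against 12.6% of the column for either sign and 7.89% for negative ones. All 13 were negative, among them BARD1 (-9.11) and PALB2 (-9.11), partners of BRCA1, in the authors' deposited table. RAD50 (-8.27) of double-strand break repair was also among them, chosen after its value was seen, in the authors' deposited table. Leaving the repeated values out turned the counts to 16 positive and 11 negative, and in the first run alone they were 16 and 18. Of the unrepeated members 20.3% had 1 or more and 13.9% had -1 or less, against 20.1% and 7.72% of all unrepeated genes. Among unrepeated values the damage kinases were opposite, ATR at 3.39 and ATM at -3.47 in the second run, in the authors' deposited table. The ubiquitin ligase RAD18 (4.11) and the excision repair genes ERCC6 (3.05) and ERCC4 (2.71) were positive and the helicase WRN (-2.76) negative in the authors' deposited table.

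Mitosis and kinetochore genes had 10 of 60 at 1 or more and 13 at -1 or less, 8 of the 13 at repeated values. The counts were 8 and 5 without repeated values, and 10 on each side in the first run alone. MIS12 (-9.27) and KIF18A (-9.27) held repeated values, ANLN (-4.00) and KIF11 (-2.24) stood in the second run, and PLK4 (2.01) and NUSAP1 (1.58) were positive in the authors' deposited table. Cyclins, their kinases and inhibitors had 5 of 32 and 7 of 32, and 4 of each without repeated values. CDKN1A (1.25) and CDK6 (1.21) were positive and CCNG2 (-2.82, second run) and CDC25C (-1.34) negative in the authors' deposited table. Replication genes had 10 of 51 and 5 of 51 (9 and 4 without repeated values), with the licensing inhibitor GMNN (3.45), ORC4 (2.13) and TICRR (2.01) after MMS22L (5.77), and RFC5 (-3.61, second run) lowest in the authors' deposited table. In the list of apoptosis and stress response genes, with 14 of 57 and 8 of 57 (9 and 5 without repeated values), XIAP had -2.56 and BCL2 a repeated -8.75 in the second run in the authors' deposited table.

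**Figure D5:**
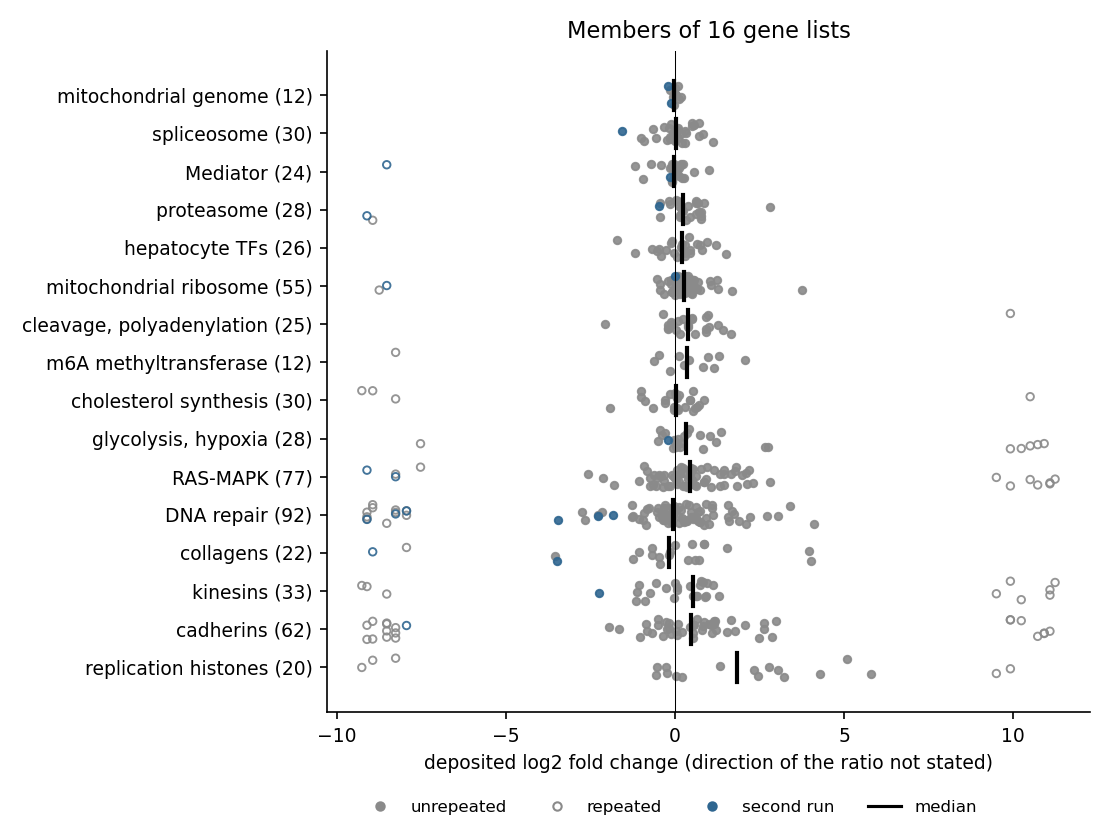
Deposited log2 fold change of every listed member of 16 gene lists (number of members in parentheses), with filled points for unrepeated and open points for repeated values, blue for the second run and a bar at each median. The mitochondrial genome list spans -0.22 to 0.18, whereas histones and cadherins reach repeated values on both sides.

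Markers of other liver cell types were few in the column. Of 11 markers of stellate cells and fibroblasts 5 were listed, COL1A1, COL1A2, PDGFRB (2.26), COL3A1 (-1.26) and ACTA2 (9.92, repeated), the 2 type I collagen chains at the values given above in the authors' deposited table. Of 10 endothelial markers 4 were listed, PECAM1 (0.92), STAB2 (-3.22, second run), ENG (-8.27, repeated) and CDH5 (-7.94, repeated, second run), in the authors' deposited table. CD14 (1.56) and CD68 (0.18) were the 2 of 17 immune markers, and SOX9 (0.40), EPCAM (-0.38) and SPP1 (-0.76) the 3 of 7 cholangiocyte markers in the authors' deposited table. No levels are given, so whether these transcripts were abundant in either genotype is not shown.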

How the data were processed

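Poly(A) RNA of HUH7 cells was fragmented and immunoprecipitated with an m6A antibody, per the labels' protocols. The values are log2 fold changes deposited by the authors, 1 per gene, named so per the file headers. The submitters' processing notes name FastQC 0.12.0 and hg38. For the aligner, peak caller, scaling, filters and direction of the ratio: not given in the sources used here. Per-library counts were not analysed here, so no precision from depth can be given.

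Gene names were matched to the RefSeq table of GRCh38.p14, 10127 as current symbols and 147 through a synonym, and 173 were unmatched. Coordinates are those of that table. Python 3.11.15 with pandas 2.3.3 was used. Genes past 1 are those at 1 or above, or at -1 or below. The code that marks repeated values was run on simulated data with planted repeats, which checks the code and not the rule for these data. Alternatives were a threshold of 2, leaving out repeated values, subtracting the column median, current symbols only and leaving out the second run.

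The 115 lists and the rule for named genes were chosen with earlier results of these data known, and 17 genes caught by name patterns or misplaced were removed after the data were seen. Named were the 15 largest unrepeated values per sign, up to 6 unrepeated and 2 repeated per sign in each list, and all members of lists of up to 20 and of the m6A, polyadenylation, histone, apolipoprotein, hepatocyte factor and marker lists. Some small-list members are given as counts only, and some genes are not reported here.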

Additional observations from a re-analysis of the deposited data

How the results depend on the processing

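The 2324 genes at 1 or more became 1200 at a threshold of 2, where 1040 negative genes were left of 1529. Leaving out repeated values brought the negative count to 705 and the positive count to 1833. Current symbols only (2253 and 1481), subtracting the column median (1990 and 1748) and leaving out the second run, an alternative chosen after seeing the data (2301 and 1198), stayed within 1.5 times of the deposited counts. The positive share of genes past 1 was 60.3% as deposited, 72.2% without repeated values, 53.2% with the median subtracted and 65.8% without the second run. Of 115 list medians, subtracting the column median changed the sign of 41. Leaving out repeated values moved 16 by more than 0.1 and changed the sign of 5, and leaving out the second run moved 10 and changed the sign of 5. The largest moves, 4.43 and 1.91, belonged to the endothelial marker list of 4 genes. No paired analysis was possible because each kind of library was made once and 1 value per gene was deposited. No library could be left out for the same reason, and neither depth nor error between libraries is known.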

Other observations

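Families named for structure or still without a described function were close to the column. TMEM genes had 24 of 127 at 1 or more and 18 at -1 or less, led by TMEM151A (4.74) and TMEM254 (-4.55, second run) in the authors' deposited table. FAM and open reading frame genes had 43 of 187 and 28 of 187, with FAM78A (5.91) and FAM53A (4.63) highest in the authors' deposited table. Coiled-coil and leucine-rich repeat genes had 22 of 95 and 15 of 95. In the circadian clock list of 19 genes, NR1D2 (2.89), PER3 (2.86), PER2 (1.29) and BMAL1 (1.07) were among those at 1 or more in the authors' deposited table. PER1 (0.24), NR1D1 (0.77) and TIMELESS (0.54) were smaller, DBP (-1.18) was negative, and CRY1 (-8.94) and BHLHE41 (-8.94) shared 1 repeated negative value in the authors' deposited table. Of 4 genes in the list of long noncoding RNA symbols, TUG1 (1.89) and NEAT1 (0.18) were positive in the authors' deposited table. The other 2 were negative, the lower at -0.68.

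Chromosomes held between 100 listed genes (chromosome 21) and 1032 (chromosome 1). The share at 1 or more was 13.6% of 279 genes on chromosome 20 and 31% of 100 genes on chromosome 21, around the 22.2% of the column. The share at -1 or less ran from 11.7% on chromosome 22 to 21.1% on chromosome 18, and on the X chromosome it was 19.3%, against 18.9% at 1 or more. These shares rest on unequal numbers of genes and carry no test.

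Values past 1 were more frequent in longer genes. With the 10274 genes split into 5 equal groups by length in the RefSeq annotation, with median lengths from 5.3 to 158.7 kb, the share at -1 or less was 11.8, 12.8, 13.7, 17 and 18%. The share at 1 or more was 21.2, 20, 21.4, 22.8 and 26%. Over the unrepeated values the Spearman correlation of length with the absolute value was 0.0793 and with the signed value -0.012, a description across genes that share the same libraries.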
